A study of Mus musculus with 12 samples.

Results

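Glutamine and glutamate enzymes were followed in an H3K27ac chromatin immunoprecipitation (ChIP) data set of mouse microglia, the resident macrophages of the brain. The members were 9 genes taken by symbol: Gls2, Glul, Glud1, Got1, Got2, Gpt2, Psat1, Asns and Gclc. The deposited table gave 15879 genes at least 1 window within 100 kb of their transcription start site (TSS). Every 1 kb window that the table assigned to a member and that lay within 100 kb of its TSS was used, singly and summed per gene. This gave 54 windows, spread over 8 members, of 67822 in all and 63387 within 100 kb of a TSS. Asns had no window. The numbers were 15 for Glul, 14 for Gclc, 7 for Got1, 6 for Psat1, 5 for Gpt2, 4 for Got2, 2 for Gls2 and 1 for Glud1. The 12 libraries formed 4 groups of 3: H3K27ac and input chromatin from wild-type mice on a C57BL/6N background, and H3K27ac and input from Cias1-knockout mice, named Nlrp3-/-, in which the gene of the inflammasome sensor NLRP3 is disrupted. The knockout is not restricted to microglia in the labels, which state no age, sex or treatment. CD11b+ cells were pulled from dissociated, myelin-depleted forebrain with magnetic beads. The title of the series ties NLRP3 to glutamine breakdown in microglia, and the comparison of genotypes asks here whether the mark differed at the enzymes of that pathway.

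Glutaminase splits glutamine into glutamate and ammonia, and glutamine synthetase runs the opposite way. Glutamate dehydrogenase and the transaminases then exchange the amino group of glutamate and feed its carbon skeleton, as alpha-ketoglutarate, into the citric acid cycle, while other enzymes spend glutamine or glutamate on asparagine, serine and glutathione. In the brain glutamine synthetase is best known from astrocytes, which clear synaptic glutamate. H3K27ac, acetylation of lysine 27 on histone H3, stands at active promoters and enhancers.

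Of the 9 members 7 had at least 1 entry in the RefSeq promoter table (GRCm38.p6, the same assembly as mm10), Psat1 with 2. The promoters of Glul and Got1 are shown because the windows over them had the most H3K27ac among the start windows that the table gives to a member, and both Psat1 promoters because Psat1 was the 1 member whose genotypes did not overlap. Each runs 5′ to 3′ on the gene's strand from 250 bases before to 50 bases after the start. Capitals mark matches, on either strand, to any of 6 short strings. The CCAAT box was searched as CCAAT and the GC box as GGGCGG. For the TATA box the letters were TATAAA, and for the core bound by ETS factors such as PU.1 they were GAGGAA. The composite element of ATF4 and C/EBP was searched as TGATGNAA. The core of the antioxidant response element was searched as TGACNNNGC. Glul lies at chr1:153899679-153899978 on the plus strand, Got1 at chr19:43524556-43524855 on the minus strand, and Psat1 on the minus strand at chr19:15925010-15925309 (upstream start) and chr19:15924573-15924872 (downstream start).
Glul: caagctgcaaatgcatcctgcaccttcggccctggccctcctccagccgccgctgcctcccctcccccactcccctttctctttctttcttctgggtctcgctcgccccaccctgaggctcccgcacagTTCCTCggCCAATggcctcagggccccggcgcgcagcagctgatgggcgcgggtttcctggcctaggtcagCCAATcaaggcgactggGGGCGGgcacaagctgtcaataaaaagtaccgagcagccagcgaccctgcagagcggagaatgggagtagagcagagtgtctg
Got1: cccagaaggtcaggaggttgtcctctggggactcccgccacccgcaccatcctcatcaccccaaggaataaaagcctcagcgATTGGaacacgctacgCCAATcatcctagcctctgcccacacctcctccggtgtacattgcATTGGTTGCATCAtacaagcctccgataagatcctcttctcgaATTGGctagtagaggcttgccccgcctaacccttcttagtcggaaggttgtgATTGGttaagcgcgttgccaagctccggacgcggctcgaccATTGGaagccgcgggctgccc
Psat1, upstream start: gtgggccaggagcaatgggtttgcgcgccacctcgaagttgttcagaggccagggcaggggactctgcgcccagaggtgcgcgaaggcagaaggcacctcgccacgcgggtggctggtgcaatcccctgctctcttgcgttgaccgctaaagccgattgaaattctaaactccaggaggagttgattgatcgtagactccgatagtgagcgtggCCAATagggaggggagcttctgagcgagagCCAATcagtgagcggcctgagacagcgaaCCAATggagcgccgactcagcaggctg
Psat1, downstream start: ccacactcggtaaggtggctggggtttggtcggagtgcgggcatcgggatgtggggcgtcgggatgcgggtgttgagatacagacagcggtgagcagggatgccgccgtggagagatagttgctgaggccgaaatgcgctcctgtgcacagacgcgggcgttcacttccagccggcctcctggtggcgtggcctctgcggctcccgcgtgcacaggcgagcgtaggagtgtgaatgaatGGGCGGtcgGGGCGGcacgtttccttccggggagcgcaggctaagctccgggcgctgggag

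The Glul promoter held 2 CCAAT boxes, 1 GC box and 1 ETS core. The Got1 promoter held 6 CCAAT boxes, found in as many copies or more in 26 of the 32851 promoters of the table (0.0791%), and 1 ATF4 and C/EBP composite at −102 to −95, abutting the CCAAT box at −107 to −103. At Psat1 the upstream start had 3 CCAAT boxes and the downstream start 2 GC boxes. Outside the sequences shown, Asns had a composite element at −23 to −16, 1 GC box and 1 antioxidant response core. There were 3 GC boxes in the promoter of Glud1, 2 in that of Gpt2, and 1 TATA string on the opposite strand in that of Got2. At least 1 match was present in 37.4% of all promoters for CCAAT, 35.7% for GGGCGG, 28.3% for GAGGAA, 13.6% for TATAAA, 12.4% for TGACNNNGC and 3.97% for TGATGNAA. The matches describe letters, not binding.

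The H3K27ac libraries held 3726550 to 5028129 tags (aligned reads as HOMER counts them), 39.1% to 46.1% of them in windows, and the input libraries 3287009 to 6961590 tags, 8.31% to 9.32% in windows. Nlrp3 was lower in the knockout, at 363, 273 and 292 against 103, 108 and 84.2 CPM (tags scaled to a common library total; log2 fold change −1.65, SE 0.17, edgeR adjusted p = 2.15e-06). All 12 microglia marker genes listed had a promoter window, and their mean level per window was 19.4 to 23.8 CPM over the wild-type libraries, against 18.9 to 23.3 CPM in the knockout (CPM of all tags). Promoter windows of markers of astrocytes, oligodendrocytes, neurons, endothelial and mural cells, other myeloid cells and lymphocytes were present for 1 to 5 of 12 genes per list, at no more than 4.61 CPM. Those of border macrophages, monocytes and neutrophils (3 of 12 genes) held 0.537 to 1.17 CPM in wild type against 0.883 to 4.06 CPM in the knockout, with medians of 1.04 and 3.32 times input, and those of endothelial and mural cells (5 of 12) had medians of 2.11 and 4.05 times. Their part in the members' values was not tested. Among neuronal markers Syp was at 0 in all 6 H3K27ac libraries. Neither edgeR nor DESeq2 called a marker gene of any list. Wild-type replicate 1 alone had 0 tags at Y-linked promoters, so sex was probably unbalanced between genotypes. The labels do not say whether replicates were separate animals, so p-values measure the spread between these libraries, which may be technical. Whether less signal came from fewer cells or from less mark per cell cannot be told apart in bulk chromatin.

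By group mean, H3K27ac stood above input at the start of 7 of the 8 members with a window and near background at Gls2. At Got2 wild-type replicate 1 lay within the range of input, at 1.07 CPM against 0.608 to 1.69 CPM in wild-type input. The windows nearest to a TSS, among those the table gives to a member, are compared here in CPM of all tags of a library, since all have the same length. In wild type Got1 came first at 11.5 ± 0.345 (mean ± SD, n = 3 libraries per genotype throughout), before Glul at 10.4 ± 2.67, Glud1 at 6.74 ± 2.73 and Gclc at 4.78 ± 0.874. Psat1 followed at 4.56 ± 1.81, Got2 at 3.79 ± 2.36, Gpt2 at 2.69 ± 0.622 and Gls2 at 0.450 ± 0.586. The ranges of neighbours in this order overlapped, except that every library of Gpt2 stood above every library of Gls2. Among all promoter windows (within 1 kb of a TSS) in wild type, Got1 stood at percentile 72.3, Glul at 68.8, Glud1 at 52.3, Gpt2 at 26.2 and Gls2 at 6.82. For Glud1 this window begins past the start, and the window over the start, given to a neighbouring gene, held more tags (below). Got1 had a second promoter window, at +990 bp, which stood at percentile 85.7. In the knockout the order was Got1 (13.4 ± 4.63), Glul (9.0 ± 3.0), Glud1 (8.02 ± 2.40), Got2 (6.42 ± 3.63), Gclc (5.50 ± 2.16), Gpt2 (2.71 ± 1.44), Psat1 (1.91 ± 1.22) and Gls2 (0.206 ± 0.199). There, neighbours overlapped in all cases but Psat1 and Gls2. Over input (ratio of mean CPM with 0.5 added to both) the members' promoter windows had a median of 5.25 times in wild type against 7.33 times in the knockout, and their distal windows 3.53 and 3.31 times. For all promoter windows these medians were 5.45 and 5.99 times, and for all distal windows 2.36 and 2.55 times.

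**Figure D1:**
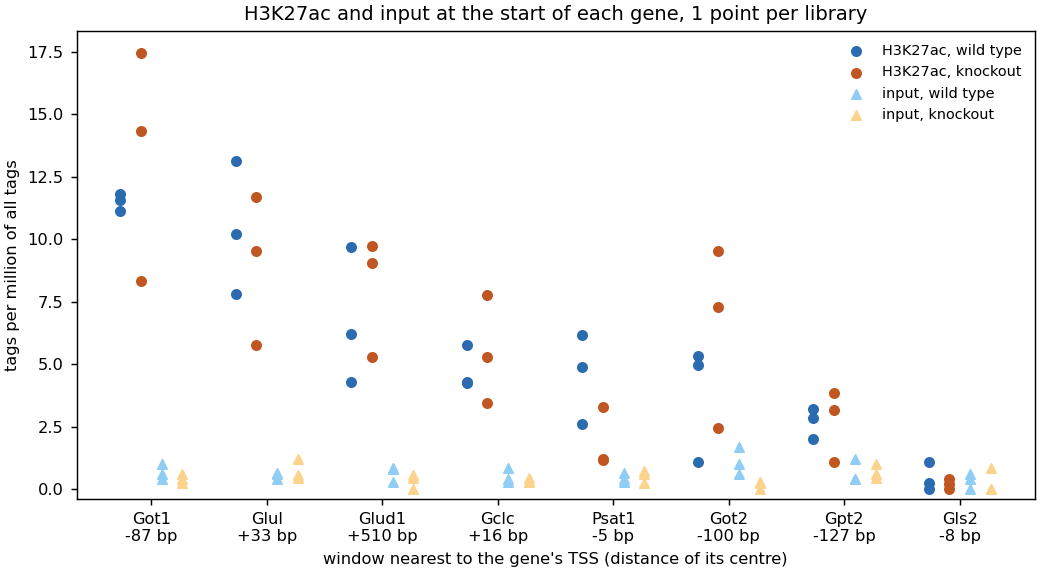
H3K27ac and input level in CPM of all tags, that is tags scaled to an equal library total (vertical axis) in the window nearest to the TSS of each member with a window (horizontal axis, with the distance of the window's centre), 1 circle per H3K27ac library and 1 triangle per input library. Got1 and Glul stand highest in both genotypes. Gls2 overlaps its input, as does wild-type replicate 1 of Got2, and the genotypes overlap at every gene.

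Summed per gene, no member passed the test between genotypes. Of the 9 members 7 entered the edgeR quasi-likelihood fit, since Gls2 was removed by the filter on low counts and Asns had no window. Of these 7, 0 had a Benjamini-Hochberg adjusted p under 0.05 (0.645 to 0.991), against 25 of 12148 genes (0.206%). An unadjusted edgeR p under 0.05 was found for 1 of the 7, Psat1, beside 5.77% of all genes tested. DESeq2 also called 0. The members' median log2 fold change of knockout against wild type was 0.11, with 4 positive and 3 negative values, beside a median of 0.0013 over all genes. All 3 wild-type libraries stood above all 3 knockout libraries at 1 member, Psat1, as at 5.83% of all genes tested, while no member had the knockout on top. Counting both directions, 11.3% of all genes did not overlap. Levels per gene are given below in CPM over the genes kept by the filter, after TMM scaling, and depend on how many windows a gene has.

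**Figure D2:**
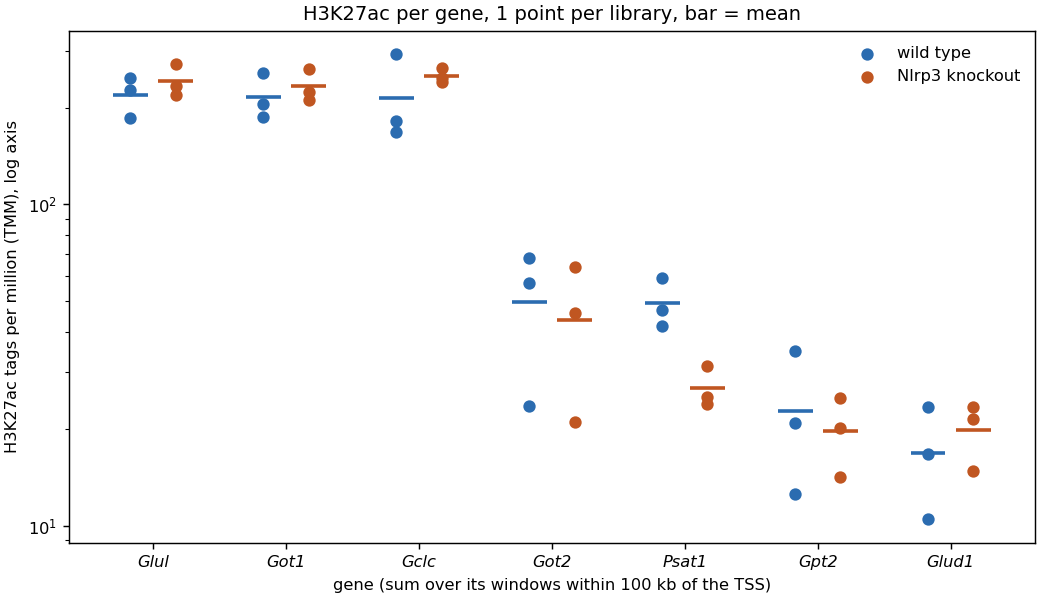
H3K27ac per gene in CPM (vertical log axis; TMM-scaled sum over the windows within 100 kb of the TSS) for the 7 members tested, 1 point per library with a bar at the mean. The genotypes separate at Psat1 alone, where wild type lies above the knockout, and a single library stands apart in Got2 (both genotypes) and in Gclc (wild type).

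Gls2, which encodes the glutaminase isoform best known from liver, held almost no H3K27ac. Its 2 promoter windows overlap and together contained 2, 6 and 3 tags in wild-type replicates 1, 2 and 3 and 8, 2 and 1 in the knockout. Input held 0, 4 and 2 tags against 11, 0 and 1. The ratio over input was 1.40 in wild type against 1.17 in the knockout, and the filter on low counts kept the gene out of the test.

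Glul, the glutamine synthetase gene, had the most windows and the highest mean per-gene level in wild type. It held 377, 378 and 326 tags in wild type against 523, 456 and 409 in the knockout, or 220 ± 30.6 against 242 ± 28.9 CPM. The knockout libraries were deeper, and the scaled levels overlap although the tags do not. The log2 fold change was 0.14 (SE 0.15, 95% interval −0.18 to 0.45, edgeR adjusted p = 0.974). Glul stood at 6.72 times input in wild type against 7.56 times in the knockout. In the brain this enzyme is best known from astrocytes. The promoters of astrocyte markers had a mean level per window of 0.483 to 1.98 CPM over the wild-type libraries, against 0.406 to 1.31 CPM in the knockout. This covers the 4 of 12 genes with a promoter window (Aldh1l1, Fgfr3, Atp1b2 and Ndrg2), with none at 0. Gfap, Aqp4, Gja1, Slc1a2 and 4 more had no promoter window.

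Along Glul the mark was strongest not over the start but just inside the gene. The window in intron 1 at +1408 bp from the TSS (chr1:153900837-153901837, mm10) held 76, 91 and 85 tags in wild type against 104, 79 and 85 in the knockout, the most of any Glul window within 100 kb. It stood at 20.5 times input in wild type against 11.9 times in the knockout, with 6 and 16 input tags in the groups, while the H3K27ac log2 fold change was −0.12 (SE 0.26). The promoter window at +33 bp (chr1:153899462-153900462), over the sequence shown above, held 38, 59 and 33 tags in wild type against 53, 29 and 47 in the knockout (log2 fold change −0.21, SE 0.39). Both windows overlapped between genotypes.

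Downstream of Glul, 2 of its 11 tested windows had all knockout libraries above all wild-type libraries, neither past the adjusted threshold. The intergenic window at +14137 bp (chr1:153913566-153914566) held 21, 40 and 38 tags in wild type against 73, 76 and 59 in the knockout. Its log2 fold change was 0.86 (SE 0.35, 95% interval 0.13 to 1.58, unadjusted p = 0.0221, edgeR adjusted p = 0.998). The window at +15957 bp (chr1:153915386-153916386), chosen after its values were seen, comes from the authors' knockout site list alone and held 0, 3 and 1 tags against 11, 13 and 11. Its wild-type level was 0.813 times input and its knockout level 2.74 times, and the log2 fold change of 2.82 had an SE of 1.27 (edgeR adjusted p = 0.998). It passed the filter on low counts only through the knockout libraries, where it is high, so its unadjusted p and its interval support nothing. The 9 remaining tested Glul windows had log2 fold changes between −0.46 and 0.62.

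Glud1, which encodes the mitochondrial glutamate dehydrogenase, had 1 window, at +510 bp (chr14:34310737-34311737), beginning just past the annotated start. It held 16, 28 and 41 tags in wild type against 41, 49 and 26 in the knockout, 16.9 ± 6.48 against 19.9 ± 4.53 CPM. The groups overlapped (log2 fold change 0.24, SE 0.46, 95% interval −0.70 to 1.17, edgeR adjusted p = 0.988). The start of Glud1 itself lies in an overlapping window that the table gives to Fam35a (chr14:34310033-34311033), and there tags were 34, 50 and 77 against 70, 76 and 51, with a log2 fold change of 0.08 (SE 0.33). Either window stood above input: 6.27 and 10.1 times at +510 bp, in wild type and knockout, and 14.1 and 12.4 times at the shared start.

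Got1 and Got2 encode the cytosolic and the mitochondrial aspartate transaminase, which pass the amino group of glutamate to oxaloacetate. Got1 was the member highest above input, at 10.4 times in wild type against 16.2 times in the knockout. It held 286, 343 and 449 tags in wild type against 505, 467 and 370 in the knockout, 216 ± 36.0 against 233 ± 28.1 CPM. The groups overlapped, with a log2 fold change of 0.11 (SE 0.16, 95% interval −0.22 to 0.43, edgeR adjusted p = 0.982). With 1 library left out it lay between 0.0031 and 0.25. In the interaction with input, scaled to total tags, it was 0.66 (unadjusted p = 0.0487, edgeR adjusted p = 0.793). In that fit the median over all genes was 0.18, and 61.6% of genes were positive.

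As in Glul, the strongest Got1 signal was intronic. The window at +12454 bp in intron 2 (chr19:43511651-43512651) held 67, 101 and 130 tags in wild type against 159, 158 and 72 in the knockout (log2 fold change 0.16, SE 0.27). It overlaps the window at +12867 bp (chr19:43511238-43512238), which held 45, 66 and 100 tags against 141, 136 and 63 (0.46, SE 0.30, unadjusted p = 0.133). In tags, knockout replicates 1 and 2 lay above the wild-type range in both windows and replicate 3 lay within it. The start window at −87 bp (chr19:43524192-43525192), which covers the promoter with 6 CCAAT boxes, held 44, 50 and 49 tags in wild type against 65, 42 and 86 in the knockout (0.25, SE 0.35). The wild-type libraries were close together there and the knockout libraries spread on both sides of them.

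Got2 varied more between libraries than between genotypes. It held 36, 114 and 100 tags in wild type against 122, 96 and 37 in the knockout, 49.6 ± 23.3 against 43.6 ± 21.5 CPM, with wild-type replicate 1 and knockout replicate 3 both low. The log2 fold change was −0.19 (SE 0.38, 95% interval −0.95 to 0.58, edgeR adjusted p = 0.990) and turned positive without wild-type replicate 2 (0.11) or knockout replicate 3 (0.14). Its 3 windows around the start had different signs: 0.69 at −100 bp (chr8:95887965-95888965; 4, 24 and 21 tags against 33, 48 and 12), −0.39 at +526 bp and −0.68 at +1079 bp, each overlapping between genotypes. A window 26725 bp upstream of Got2, in both site lists, held 0 H3K27ac tags in all 6 libraries. A count of 0 allows up to 0.241 CPM in wild type or 0.207 CPM in the knockout (3 tags over the group), against 6 and 10 input tags found there.

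Gpt2, the mitochondrial alanine transaminase gene, was low in both genotypes. It held 32, 21 and 61 tags in wild type against 27, 42 and 44 in the knockout, 22.8 ± 11.3 against 19.8 ± 5.46 CPM (log2 fold change −0.21, SE 0.44, 95% interval −1.12 to 0.70, edgeR adjusted p = 0.991). Its ratio over input was 2.74 and 2.71 times. In 2 of its 3 intronic windows 1 library per genotype held all the tags of that genotype. Tags at +6675 bp were 0, 0 and 16 in wild type against 7, 0 and 0 in the knockout. At +22912 bp they were 0, 0 and 18 against 5, 0 and 0. The intronic window at +8056 bp, from the wild-type site list alone, held 2, 2 and 1 tags against 4, 12 and 10, or 0.892 and 2.93 times input. It was the 1 Gpt2 window whose genotypes did not overlap, and the filter kept it out of the test; it was chosen after its values were seen. The start window at −127 bp (chr8:85491990-85492990) and the window with the most tags, at −10562 bp, had log2 fold changes of 0.07 (SE 0.80) and −0.48 (SE 0.76).

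Psat1, which encodes the phosphoserine transaminase that uses glutamate in serine synthesis, was the member with the largest difference between genotypes. It held 90, 70 and 82 tags in wild type against 48, 50 and 55 in the knockout, although the knockout libraries were deeper. Scaled levels were 58.8, 41.9 and 46.8 against 25.1, 23.9 and 31.3 CPM, so that the groups did not overlap. The log2 fold change was −0.88 (SE 0.33, 95% interval −1.55 to −0.20, unadjusted p = 0.0124), and it did not pass the adjustment over all genes (edgeR adjusted p = 0.645, DESeq2 adjusted p = 0.526). With 1 library left out it lay between −1.0 and −0.73. Input at Psat1 was 11, 16 and 13 tags in wild type against 25, 8 and 9 in the knockout (log2 fold change 0.04, SE 0.38, edgeR adjusted p = 0.998). Over input Psat1 went from 5.49 times in wild type to 3.46 times in the knockout. By replicate number the ratios overlapped, at 4.29 to 8.71 times in wild type against 2.71 to 4.47 times in the knockout. In the interaction with input, scaled to total tags, the Psat1 log2 fold change was −0.73 (unadjusted p = 0.185, edgeR adjusted p = 0.881). In that fit the median over all genes was 0.18.

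The negative fold changes of Psat1 lay at the start and at the end of the gene. At the end, the window at +19648 bp (chr19:15904474-15905474), from the wild-type site list alone, held 27, 20 and 35 tags in wild type against 8, 9 and 13 in the knockout. Its log2 fold change of −1.64 had an SE of 0.60 (95% interval −2.88 to −0.39, unadjusted p = 0.0118, edgeR adjusted p = 0.963), and input held 7 and 5 tags in the groups. It entered the fit only through the wild-type libraries, where it is high, so its unadjusted p and its interval support nothing. The window overlapping it, at +20346 bp (chr19:15903776-15904776), had a log2 fold change of −0.80 (SE 0.69). The window at −5 bp (chr19:15924564-15925564), which covers both promoters shown, held 23, 22 and 11 tags against 15, 6 and 6 (−1.27, SE 0.74, unadjusted p = 0.0991), with knockout replicate 1 inside the wild-type range. It too entered the fit only through the wild-type libraries, so its unadjusted p supports nothing either. The neighbouring promoter window at −796 bp went the other way, at 11, 4 and 10 tags against 12, 28 and 4 (0.52, SE 0.88). Summed over windows within 1 kb of the TSS alone, the Psat1 log2 fold change was −0.47 (edgeR adjusted p = 1.00). A window at +57549 bp held 0 H3K27ac tags in all 6 libraries.

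Asns encodes asparagine synthetase, which takes its nitrogen from glutamine. The gene lies at chr6:7675165-7693209 (GRCm38.p6), and the nearest window of any gene, given to C1galt1, was 150928 bp away. H3K27ac at Asns was therefore not measured.

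Gclc encodes the catalytic subunit of glutamate-cysteine ligase, which begins glutathione synthesis. It held 279, 489 and 294 tags in wild type against 508, 502 and 433 in the knockout, 214 ± 68.2 against 251 ± 13.5 CPM. Wild-type replicate 2 stood above all knockout libraries and the other wild-type libraries below them. The log2 fold change was 0.23 (SE 0.17, 95% interval −0.13 to 0.58, edgeR adjusted p = 0.935). It was 0.51 without wild-type replicate 2 (unadjusted p = 0.00639, edgeR adjusted p = 0.587), 0.12 without wild-type replicate 1 and 0.076 without wild-type replicate 3. Gclc stood at 5.52 times input in wild type against 7.80 times in the knockout.

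Upstream of Gclc, a pair of overlapping intergenic windows carried its strongest signal. The window at −16649 bp (chr9:77737386-77738386), from the wild-type site list alone, held 68, 113 and 46 tags in wild type against 122, 115 and 142 in the knockout. The window at −17040 bp (chr9:77736995-77737995) held 57, 97 and 44 against 103, 111 and 116. Both had a log2 fold change of 0.53 (SE 0.29) with unadjusted p of 0.0767 and 0.0825, neither past the adjusted threshold. At −16649 bp wild-type replicate 2 overlapped the knockout after scaling. At −17040 bp it did so under TMM alone: in tags and in CPM of all tags every knockout library stood above every wild-type library. Without wild-type replicate 2 the fold change at −16649 bp was 0.92 (unadjusted p = 0.00875, edgeR adjusted p = 0.899), and without replicate 3 it was 0.25. The start window at +16 bp (chr9:77754051-77755051) held 16, 26 and 18 tags against 24, 39 and 17 (0.18, SE 0.53). Of 14 Gclc windows, 2 of them promoter windows, 7 stood above 2 times input in wild type and 4 below input. Over all windows within 100 kb, 80.7% of promoter and 55.2% of distal windows stood above 2 times input in wild type.

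**Figure D3:**
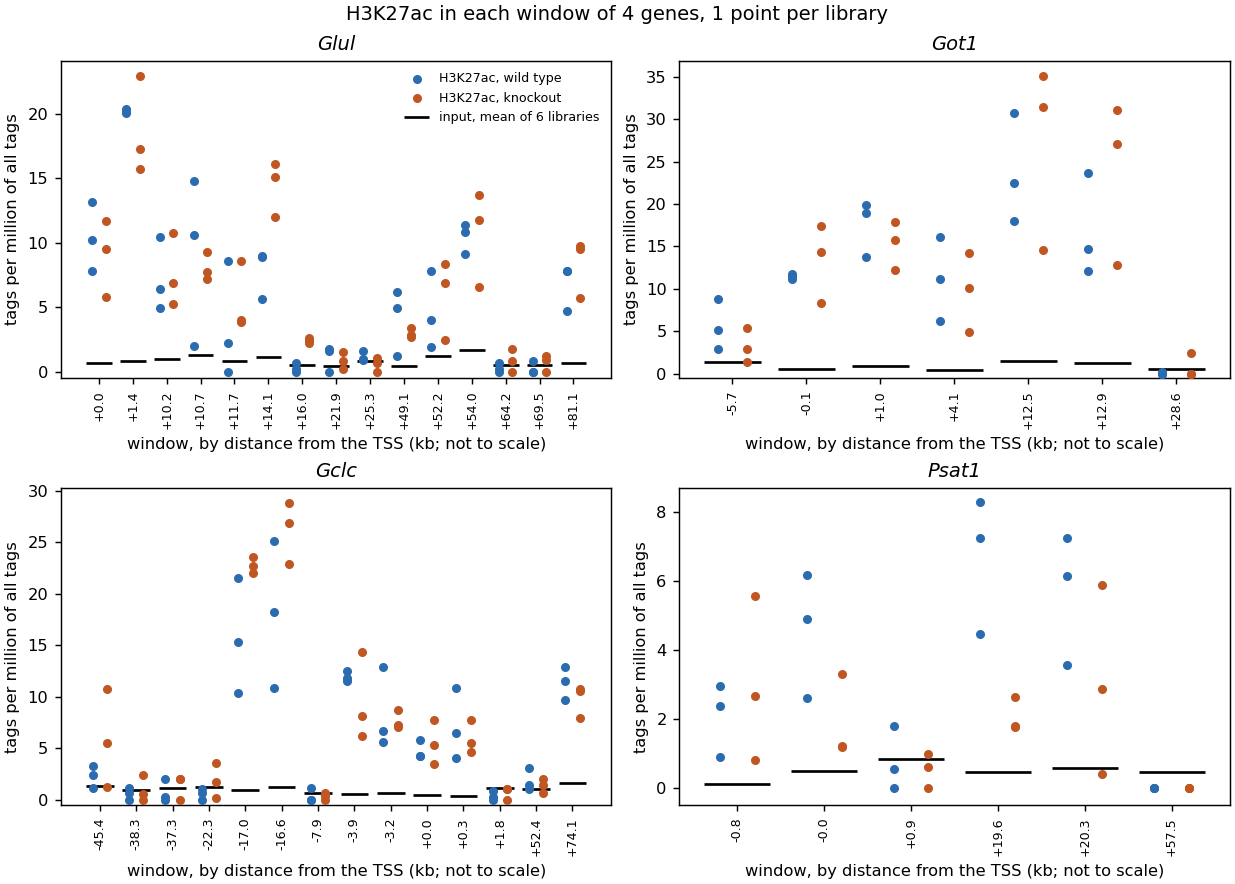
H3K27ac in CPM of all tags (vertical axis) in every window within 100 kb of the TSS of Glul, Got1, Gclc and Psat1, in order of distance (horizontal axis, kb, not to scale). Each point is 1 library and the black bars are the mean of the 6 input libraries; the highest windows of Glul, Got1 and Gclc lie off the start window, and wild type lies above the knockout at +19.6 kb of Psat1.

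Across single windows no member window passed either. Of 54 windows 35 entered the fit and 0 were called by edgeR or by DESeq2, against 24 of 40370 windows by edgeR (0.0595%). Beside 4.69% of all windows tested, 3 of the 35 had an unadjusted edgeR p under 0.05. These 3, at +14137 and +15957 bp of Glul and +19648 bp of Psat1, were also the tested windows whose genotypes did not overlap in TMM-scaled CPM, and 10.9% of all windows tested did not. The second of them passed the low-count filter only through the knockout and the third only through wild type, so their unadjusted p support nothing. In CPM of all tags the windows at −17040 bp of Gclc and +8056 bp of Gpt2, the latter not tested, also did not overlap. The knockout was above at the Glul windows, as at 5.48% of all windows. Fold changes were positive in 18 and negative in 17 member windows, with a median of 0.04 beside 0.0042 over all windows. Of the 54 windows, 14 promoter and 40 distal, 34 stood above 2 times input in wild type against 36 in the knockout. Over all promoter windows within 100 kb these shares were 80.7% and 82.4%, and over all distal windows 55.2% and 57.1%. Scaled to tags inside windows, which removes the enrichment of H3K27ac libraries in windows as a whole, the members' counts were 17 and 19.

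**Figure D4:**
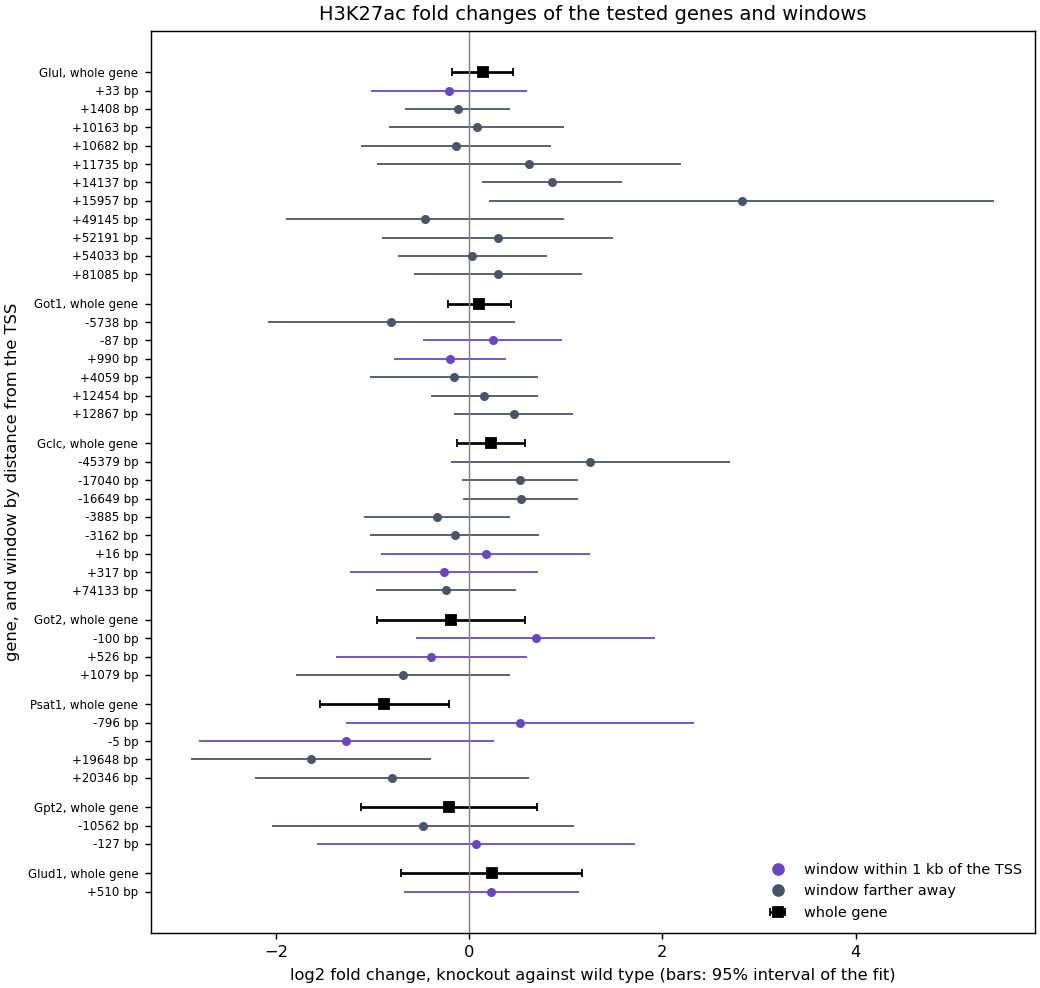
Fitted log2 fold change of H3K27ac, knockout against wild type (horizontal axis), for the 7 members tested (squares) and their 35 tested windows (circles, by distance from the TSS on the vertical axis), with bars for the 95% interval. The intervals that do not cross 0 are those of Psat1 as a gene, its window at +19648 bp and the Glul windows at +14137 and +15957 bp. None passed the adjusted threshold. The window at +15957 bp entered the fit only through the knockout, and that at +19648 bp only through wild type.

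Input chromatin was compared in the same way. The 5 members with enough input tags (Glul, Got1, Gpt2, Psat1 and Gclc) gave 0 calls by edgeR and 0 by DESeq2, against 13 of 6511 genes by edgeR (0.2%). Beside 5.28% of all genes tested, 0 of the 5 had an unadjusted edgeR p under 0.05. Their log2 fold changes ran from −0.37 (Got1) to 0.18 (Glul), with edgeR adjusted p of 0.973 to 0.998. With total-tag scaling the Got1 input value was −0.56 (unadjusted p = 0.0440, edgeR adjusted p = 0.499). That scaling shifted input as a whole: the median over all genes was −0.20, 27.3% were positive and 9.65% had an unadjusted p under 0.05.

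The division of a gene's tags between promoter and distal windows overlapped between genotypes at all 6 members tested. In Glul 11.9 ± 3.18% of the wild-type tags lay in its promoter window, against 9.33 ± 2.66% of the knockout tags, and in Gclc 14.7 ± 6.11% and 11.5 ± 3.53% lay in promoter windows. In Got2 the share went from 59.2 ± 10.7% to 75.1 ± 8.35%, with overlapping libraries (2-sided exact permutation p = 0.2, adjusted 0.72 over 6 members). In Psat1 it went from 38.1 ± 11.6% to 52.6 ± 27.4%. With 1 library left out, the difference ran from 9.93 to 20.6 percentage points in Got2 and from 1.88 to 29.1 in Psat1. The remaining 5 members had exact p from 0.5 to 1. With 3 against 3 libraries the smallest possible p is 0.1.

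The other enzymes of glutamine, glutamate, glutathione, proline and related nitrogen transfer were read from the same per-gene fit. Of 57 listed genes 50 had a window and 38 were tested. Of these, 0 were called by edgeR (adjusted p 0.864 to 1.00) and 0 by DESeq2, which gave an adjusted p for 36. The median log2 fold change was −0.06, with 17 positive and 21 negative values. Beside 5.77% of all genes tested, 1 of the 38 had an unadjusted edgeR p under 0.05. That gene was Oplah, the 5-oxoprolinase that returns glutamate from the glutathione cycle, at 45.9 ± 11.5 CPM in wild type against 28.6 ± 4.31 in the knockout (−0.69, SE 0.33, unadjusted p = 0.0491). Kyat3, a kynurenine aminotransferase, had a log2 fold change of 1.11 (SE 0.55). Its levels were 7.84, 18.5 and 5.71 CPM in wild type against 9.95, 18.7 and 41.0 in the knockout. Ggt5, a gamma-glutamyltransferase, had a log2 fold change of 0.69 (SE 0.36), from 23.8 ± 5.68 to 38.4 ± 6.75 CPM. Asl, the argininosuccinate lyase gene, stood at −0.48 (SE 0.30). The genotypes overlapped at Oplah, Kyat3 and Asl but not at Ggt5. Of the 38 genes 4 did not overlap, beside 11.3% of all genes tested.

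Across the 6 H3K27ac libraries, the per-gene levels most like those of Glul belonged to Hist1h4h (Pearson r = 0.986 of log2 CPM), Manf (0.983) and Gm9855 (0.981). They are 3 of 21 genes with r above 0.95 among 12147, over 6 libraries that differ in depth and genotype. The 6 other members tested had r of −0.688 to 0.499 with Glul.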

How the data were processed

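H3K27ac and input ChIP-seq of forebrain CD11b+ cells was analysed in 12 libraries, grouped by the genotype, antibody and title labels. The deposited values were raw tag counts per library and window, which the authors made with HOMER's annotatePeaks.pl on mm10, per the file headers, with no adjustment, in 1000 bp windows centred on merged sites from a directory named ATAC. The site lists carry a wild-type or a knockout name, per the file headers. The submitters' processing notes also name DESeq2. The aligner, the treatment of duplicates, the site caller and tool releases were not given in the sources used here. H3K27ac outside the windows was not counted, and overlapping windows share tags (10 of the members' 54). A table of normalized values was not used. No library columns were identical.

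The members, gene lists, motifs and tests were chosen with earlier results of these data known. Tags were summed per gene over windows within 100 kb of the TSS given in the table; 13 windows farther away (11 of Glul, 2 of Psat1) were left out. Genotypes were compared with edgeR 4.0.16 in R 4.3.3: TMM scaling, the filterByExpr filter, a quasi-likelihood F test of 3 against 3 libraries, and Benjamini-Hochberg adjustment over all genes or windows tested (threshold 0.05), checked on simulated data. Ratios over input used CPM of all tags, plus 0.5. Promoter shares were tested by an exact permutation test (scipy 1.17.1). Named per member were the nearest tested window, the one with the most tags and the one with the smallest p, and of other enzymes the 2 per direction with the smallest p. Alternatives were DESeq2 1.42.0, total-tag scaling, no filter, the replicate number as a block, each library left out, windows within 1 or 50 kb, no overlapping windows, an interaction with input, and another pseudocount or total. Floors cover counting error only. Promoter sequences came from RefSeq.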

Additional observations from a re-analysis of the deposited data

Results flagged for a closer look

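The windows beyond 100 kb entered no comparison above. For Glul and Psat1, the members with such windows, the one farthest above input in wild type is given here. The Glul window at +108981 bp (chr1:154008410-154009410) reached 14.8 times input in wild type against 18.1 times in the knockout. It held 149, 154 and 134 H3K27ac tags in wild type against 179, 235 and 133 in the knockout, more than any Glul window within 100 kb. The genotypes overlapped (log2 fold change 0.09, SE 0.21, edgeR adjusted p = 0.998). All 11 such Glul windows exceeded 2 times input in wild type, beside 55.2% of all distal windows within 100 kb. The share over all windows farther away was not computed. Of the 11, 10 were tested and 0 were called. The Psat1 window at +109261 bp (chr19:15814861-15815861) reached 8.44 times input in wild type against 11.5 times in the knockout, with 55, 48 and 60 tags against 65, 94 and 84 for an uncalled log2 fold change of 0.36 (SE 0.30, adjusted p from edgeR 0.998). Its sign is opposite to that of Psat1 summed within 100 kb. The table assigns windows by the nearest TSS, and no measurement here ties them to these genes.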

How the results depend on the processing

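The count of members called was 0 under every alternative run, for genes, windows and input. Depth limits the low members: Gls2 and 19 of the 54 windows did not enter the fits. Over all genes the 25 calls became 16 with total-tag scaling, 48 with no filter, 1 within 1 kb of the TSS, 0 in the interaction with input and 8 to 18 with 1 library left out. Over all windows the 24 calls became 68 with DESeq2, 68 with no filter and 10 to 29 with 1 library left out, and the 13 input calls 7 with DESeq2 and 6 with total-tag scaling. The cause was not tested. Scaled to tags in windows, 17 and 19 member windows, in wild type and knockout, stood above 2 times input.

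No member was called under any setting, so the sign changes below all concern uncalled fold changes. Within 1 kb of the TSS the log2 fold changes were −0.21 for Glul, −0.0025 for Got1, 0.056 for Got2, 0.067 for Gpt2 and −0.061 for Gclc, and Got2 had 0.45 in the interaction with input. The interaction had a median of 0.18 over all genes. With 1 library left out, values ran from −0.011 to 0.54 for Glud1, −0.56 to 0.14 for Got2 and −0.50 to 0.24 for Gpt2. For windows they ran from −0.40 to 0.059 (Glul +33 bp), −0.24 to 0.018 (Glul +1408 bp), −0.013 to 0.55 (Glud1 +510 bp), −0.11 to 0.52 (Got1 −87 bp), −0.026 to 0.40 (Got1 +12454 bp), −0.38 to 0.46 (Gpt2 −127 bp) and −0.12 to 0.39 (Gclc +16 bp). For input they ran from −0.25 to 0.23 (Gpt2), −0.24 to 0.19 (Psat1) and −0.22 to 0.13 (Gclc). Input with total-tag scaling gave −0.012 for Glul, −0.17 for Gpt2, −0.14 for Psat1 and −0.56 for Got1, and Gpt2 gave −0.018 with DESeq2 and −0.015 with no filter. The median over all genes for input with total-tag scaling was −0.20. Promoter shares, knockout minus wild type in percentage points, ran from −6.80 to 0.735 (Got1), −6.91 to 7.30 (Gpt2) and −5.27 to 0.295 (Gclc).

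With the replicate block 15 genes, 21 windows and 14 input genes were called, the Gpt2 window at −127 bp had a log2 fold change of −0.066 and Gpt2 input −0.042. Same-numbered libraries did not deviate together (per-gene correlations of 0.00249, 0.0115 and −0.00687), and not every library correlated best with its own number, so the numbers were not read as pairs.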
